A study of Homo sapiens with 6 samples.

Results

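The 48 genes described here encode human enzymes that add methyl groups to lysines of histones or take them off, together with close relatives of such enzymes. There are 28 writers (methylases) and 20 erasers (demethylases), found by symbol among the 60612 genes in the deposited tables. All 48 were among the 19034 genes with enough reads to be tested, so none was lost to the filter on low counts. They were chosen by name from a list proposed with the IRF9-overexpressing against control log2 fold changes of these same libraries in view. Their fold changes are therefore given as a description, and no p-value is attached to any of them.

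The RNA came from HSC-3, an established line of human oral squamous carcinoma. One group of 3 libraries was from HSC-3 cells labelled as overexpressing IRF9, the DNA-binding subunit of the interferon-activated complex ISGF3. The other group of 3 control libraries was from HSC-3 cells with no overexpression label, which the design text calls wild type. Whether the controls carried an empty vector, which promoter drove IRF9, whether the overexpressing cells were a clone or a pool, and whether replicates were separate cultures is not stated in the labels or notes used here, so the spread between replicates may be technical.

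Histone lysine methylation is read by position. Methylation of H3K4 marks promoters and enhancers, H3K36 and H3K79 methylation mark transcribed gene bodies, and H3K9, H3K27 and H4K20 methylation are tied to silent or compacted chromatin. Writers with a SET domain, and DOT1L, which has none, take the methyl group from S-adenosylmethionine. Most erasers carry a Jumonji (JmjC) domain that uses oxygen, iron and 2-oxoglutarate, while KDM1A and KDM1B use a flavin cofactor. KDM3A and KDM4B are textbook targets of the hypoxia-inducible factor HIF-1.

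Total counts per library ranged from 61645349 to 85156099. IRF9 stood at 435, 423 and 120 CPM (counts relative to the TMM-scaled library size) in the overexpressing libraries, against 27.6, 25.1 and 44.6 CPM in controls. Replicate 3 of the overexpressing group thus had less IRF9 than the other two, though more than any control (log2 fold change 3.35 ± 0.41 SE, adjusted p = 4.74e-05, edgeR quasi-likelihood test). Over all tested genes 7121, or 37.4%, were called at an adjusted p under 0.05, with 19.2% higher and 18.2% lower in overexpressing cells. The squamous markers KRT5, KRT14, TP63, CDH1, EPCAM and PKP1 were all present, and their summed level was 8633 to 9078 CPM in overexpressing libraries and 15232 to 15759 CPM in controls. They did not move together: KRT5 (-1.16), PKP1 (-1.27), KRT14 (-0.53) and CDH1 (-0.35) fell, EPCAM rose (0.54) and TP63 was not called (-0.06), and KRT5 and KRT14 made up most of the sum. The markers of other cell types summed to 99.1 to 106 CPM in overexpressing libraries and 105 to 106 CPM in controls for leukocytes, to 47.4 to 51.7 CPM in overexpressing libraries and 75.7 to 80.4 CPM in controls for fibroblasts, and to 15.5 to 16.1 CPM in overexpressing libraries and 9.18 to 11.2 CPM in controls for endothelium. Of these lists PTPRC, CD3E, COL3A1, PECAM1 and KDR were too low to be tested, while LUM fell (-1.78), LAPTM5 (0.98), PDGFRB (1.78) and EGFL7 (0.61) rose, and CD14 and COL1A1 were present and not called. CD68 (-0.15) and CDH5 (1.41) were called, but not in every fit that left out 1 library (the log2 fold change of CD68 was -0.21 to -0.12, and the log2 fold change of CDH5 was 1.05 to 1.96). What part these markers have in the results on the enzymes was not tested. In bulk RNA such as this, fewer cells that express a gene and less RNA of it per cell cannot be told apart.

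Of the 48 enzymes, 23 fell in IRF9-overexpressing cells, 6 rose and 19 did not pass the threshold. The share called lower was 47.9% (18.2% over all genes), the share called higher was 12.5% (19.2% over all genes), and 60.4% were called in either direction (37.4% over all genes). All genes are not a matched set: their median control level was 11.7 CPM, against 61.6 CPM for the enzymes. Of 11402 protein-coding genes within the enzymes' range of control CPM, 2681 were called lower and 2795 higher. In 6637 of these 11402 the groups did not overlap. Nothing is read from these shares, because the comparison that gave them was in view when the genes were listed. The median log2 fold change was -0.14, against 0.00 over all genes tested, and it was -0.17 over the erasers and -0.12 over the writers. In 34 of the 48 (70.8%, against 48.6% of all tested genes) the overexpressing and control libraries did not overlap in CPM, with 26 lower and 8 higher in overexpressing cells. Only KDM8 and KDM4D differed by at least 2-fold, in opposite directions.

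**Figure D1:**
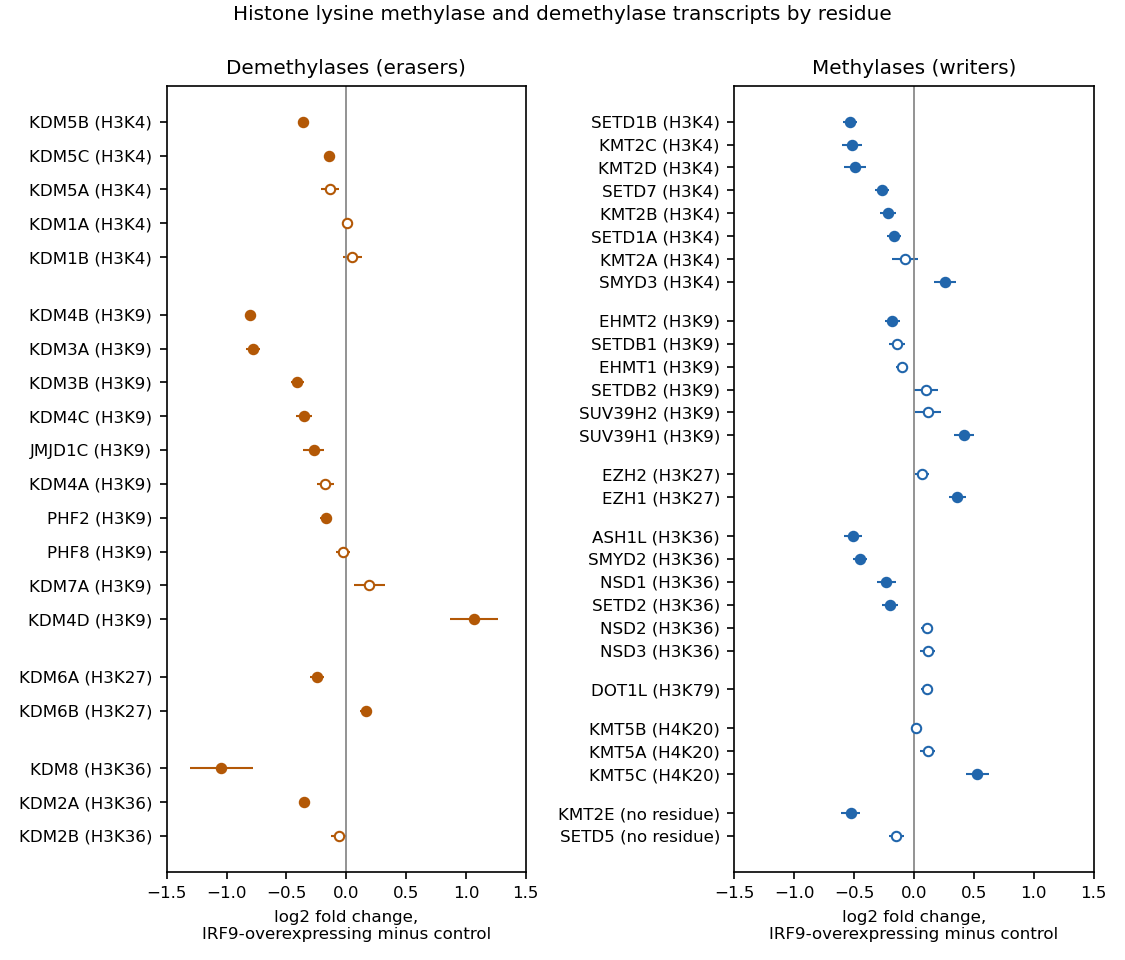
Log2 fold change (IRF9-overexpressing minus control) of each of the 48 enzymes, grouped by the residue acted on and by writer or eraser. Points are the edgeR estimates and bars their standard errors; filled points were called at an adjusted p under 0.05 and open points were not. KDM4B and KDM3A sit near -0.80, KDM8 lies lowest at -1.04 and KDM4D highest at 1.07.

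The H3K9 erasers held the widest spread. Of the 10, 6 fell, 1 rose and 3 were not called (median log2 fold change -0.22), and their summed level was 483.8 ± 31.9 CPM in overexpressing libraries and 627.5 ± 15.1 CPM in controls (SD, n = 3 each), a ratio of 0.771. KDM3A and KDM4B, the pair linked to hypoxia, fell furthest, and KDM4D rose. The stretch of 250 bases before the RefSeq start of each of these 3 genes is printed here, because they are the H3K9 erasers with the largest differences. The sequences are from RefSeq on GRCh38.p14, plus strand for all 3: chr2:86441121-86441370 for KDM3A, chr19:4968863-4969112 for KDM4B and chr11:94973459-94973708 for KDM4D. The KDM4B and KDM4D windows end just before the deposited gene starts, 4969113 and 94973709. The KDM3A window lies inside the deposited gene, which starts at 86440647, so the windows are not alike in place. Capitals mark each match to the core ACGTG or GCGTG on either strand.
KDM3A: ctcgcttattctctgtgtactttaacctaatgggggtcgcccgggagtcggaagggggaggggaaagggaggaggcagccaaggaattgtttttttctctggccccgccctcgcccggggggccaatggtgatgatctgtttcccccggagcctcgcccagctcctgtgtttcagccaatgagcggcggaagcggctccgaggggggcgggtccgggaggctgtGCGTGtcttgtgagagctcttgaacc
KDM4B: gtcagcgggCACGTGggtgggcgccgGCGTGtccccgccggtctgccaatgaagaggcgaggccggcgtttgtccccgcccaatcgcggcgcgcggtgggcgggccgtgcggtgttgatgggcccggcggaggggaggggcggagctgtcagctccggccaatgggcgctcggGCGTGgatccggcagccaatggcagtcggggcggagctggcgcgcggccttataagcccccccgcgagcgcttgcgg
KDM4D: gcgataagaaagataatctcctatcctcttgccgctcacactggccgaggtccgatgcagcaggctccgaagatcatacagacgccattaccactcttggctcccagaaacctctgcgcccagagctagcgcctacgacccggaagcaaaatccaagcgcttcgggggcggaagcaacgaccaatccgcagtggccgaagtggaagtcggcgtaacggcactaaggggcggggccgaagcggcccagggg

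KDM3A had 1 match, which begins 26 bases before the RefSeq start. KDM4B had 4, beginning 241, 240, 224 and 77 bases before it, and the first pair overlap as the same letters read on opposite strands. KDM4D had 0. The core is short and common: 43.2% of the 35116 promoters in the RefSeq table held it in a window of this length, as did 50.7% of the 15149 promoters of protein-coding genes and 33 of the 45 enzymes (73.3%) that matched the table. The interferon-stimulated response element core, GAAA then any 2 bases then GAAA, searched on both strands in the same windows, was in 3.02% of all promoters and in 1 of the 45 enzymes, PHF8. The hypoxia core was in 4 of 6 promoters of enzymes called higher, 15 of 22 of those called lower and 14 of 17 of those not called. A match describes letters in a window and is neither a shown binding site nor a cause of a difference, and a window without a match says nothing about the factor.

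KDM3A (ENSG00000115548, chromosome 2, 86440647 to 86492716, plus strand, GRCh38) removes methyl groups from mono- and dimethylated H3K9. It stood at 61.5, 71.3 and 67.9 CPM in overexpressing libraries, against 111, 114 and 118 CPM in controls. Every overexpressing library lay well below every control, and the log2 fold change was -0.78 ± 0.06 SE, a fold of 0.583. On the deposited per-length values the difference was smaller: the log2 ratio of mean FPKM was -0.42. The transcript length implied by the ratio of counts to FPKM was 5.47, 5.61 and 5.50 kb in overexpressing libraries, against 7.56, 5.91 and 7.10 kb in controls. Its log2 ratio of -0.31 was outside the 5th to 95th percentile of -0.12 to 0.11 over 12742 genes, and 0.887% of those genes had a ratio as low or lower.

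KDM4B (ENSG00000127663, chromosome 19, 4969113 to 5153598, plus strand) acts on trimethylated H3K9. It had 46.3, 45.5 and 45.5 CPM in overexpressing libraries, against 77.4, 78.6 and 83.5 CPM in controls. The overexpressing libraries were nearly level with each other and all lay far below the controls. The log2 fold change was -0.80 ± 0.05 SE, a fold of 0.574, and the log2 ratio of mean FPKM was -0.73.

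The other genes of the KDM4 family did not move as one. KDM4C, which like KDM4B acts on H3K9 and H3K36, had 25.1, 27.4 and 26.3 CPM in overexpressing libraries, against 31.7, 32.5 and 36.6 CPM in controls. The groups did not overlap, and its log2 fold change was -0.35 ± 0.07 SE. KDM4A was not called at -0.17 ± 0.07 SE, and control replicate 3, at 58.9 CPM, lay within the overexpressing range of 56.3 to 61.3 CPM. Without that control library KDM4A was called lower, at -0.26.

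KDM4D, a short KDM4 enzyme without the reader domains of KDM4A to KDM4C, was the one H3K9 eraser that rose. It had 3.60, 3.58 and 4.88 CPM in overexpressing libraries, against 1.98, 1.72 and 2.10 CPM in controls. The groups did not overlap, and the log2 fold change was 1.07 ± 0.20 SE, a fold of 2.09. The counts behind it were low for these libraries, at 254 to 396 reads in overexpressing libraries and 125 to 149 in controls. KDM4D has close paralogues, so how reads were shared among them is uncertain.

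KDM4B stood at 0.626 ± 0.03 of the KDM4A level per length in overexpressing libraries and 0.965 ± 0.14 in controls (SD of the FPKM ratio, n = 3 each). The KDM3A to KDM3B ratio was 0.949 ± 0.05 in overexpressing libraries and 0.993 ± 0.08 in controls, so on the FPKM scale it overlapped between groups. That ratio holds the shift in implied length of KDM3A given above. On counts KDM3A fell further, at -0.78 ± 0.06 SE, against -0.41 ± 0.05 SE for KDM3B.

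KDM3B, a further H3K9 demethylase of the KDM3 family, had 89.6, 96.2 and 99.9 CPM in overexpressing libraries, against 121, 133 and 125 CPM in controls. All 3 overexpressing libraries were lower (log2 fold change -0.41 ± 0.05 SE). JMJD1C, another relative, whose own demethylase activity is disputed, had 59.4, 81.5 and 71.5 CPM in overexpressing libraries, against 83.7, 81.5 and 91.0 CPM in controls. The groups nearly touched, the log2 fold change was -0.27 ± 0.09 SE, and the call was lost without overexpressing replicate 1 (-0.16), overexpressing replicate 3 (-0.29) or any 1 control (-0.23 to -0.30). JMJD1C also overlaps REEP3 on the opposite strand, which held more reads than it did and was not called (-0.09 ± 0.04 SE). PHF2, a JmjC protein that reads H3K4 methylation and acts on H3K9, was lower at -0.17 ± 0.05 SE and lost the call without overexpressing replicate 2 (-0.16), control replicate 2 (-0.13) or control replicate 3 (-0.17).

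PHF8 and KDM7A, which read H3K4 methylation and strip H3K9 marks, were not called. PHF8 was nearly level, at -0.03 ± 0.06 SE. KDM7A had 22.9, 36 and 29.4 CPM in overexpressing libraries, against 24.0, 27.2 and 25.5 CPM in controls. Its overexpressing libraries spread on both sides of the controls (log2 fold change 0.19 ± 0.13 SE), and without overexpressing replicate 1 it was called higher, at 0.35.

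**Figure D2:**
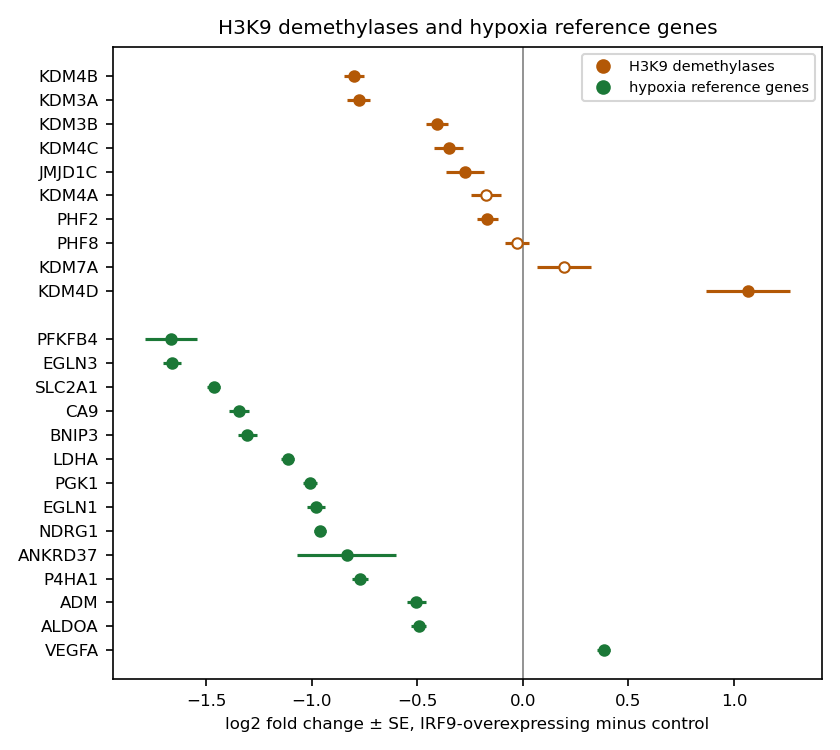
Log2 fold change (IRF9-overexpressing minus control) with its standard error for the 10 H3K9 erasers and 14 hypoxia reference genes, estimated with edgeR on the deposited counts. KDM4B and KDM3A lie near -0.80, between the reference genes EGLN3 at -1.66 and VEGFA at 0.38.

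A list of 14 genes known to respond to low oxygen was set beside KDM3A and KDM4B. In it 13 fell and 1 rose (18.2% lower and 19.2% higher over all genes), and the median log2 fold change was -0.99. The list was chosen with earlier results of these data known, so nothing is read from its count. SLC2A1, the glucose transporter GLUT1, had 293 ± 5.88 CPM in overexpressing libraries and 811 ± 1.95 CPM in controls (SD, n = 3 each), a log2 fold change of -1.47 ± 0.03 SE (adjusted p = 1.85e-11, edgeR). EGLN3, an oxygen-sensing prolyl hydroxylase, had 67.0 ± 3.47 CPM in overexpressing libraries and 212 ± 1.56 CPM in controls (log2 fold change -1.66 ± 0.04 SE, adjusted p = 8.26e-11, edgeR). VEGFA, which encodes the vascular growth factor, went the other way at 0.38 ± 0.03 SE (adjusted p = 1.73e-06, edgeR). In 10 of the 14 the fall was larger than that of KDM4B. Whether the oxygen response had a part in the lower KDM3A and KDM4B was not tested.

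**Figure D3:**
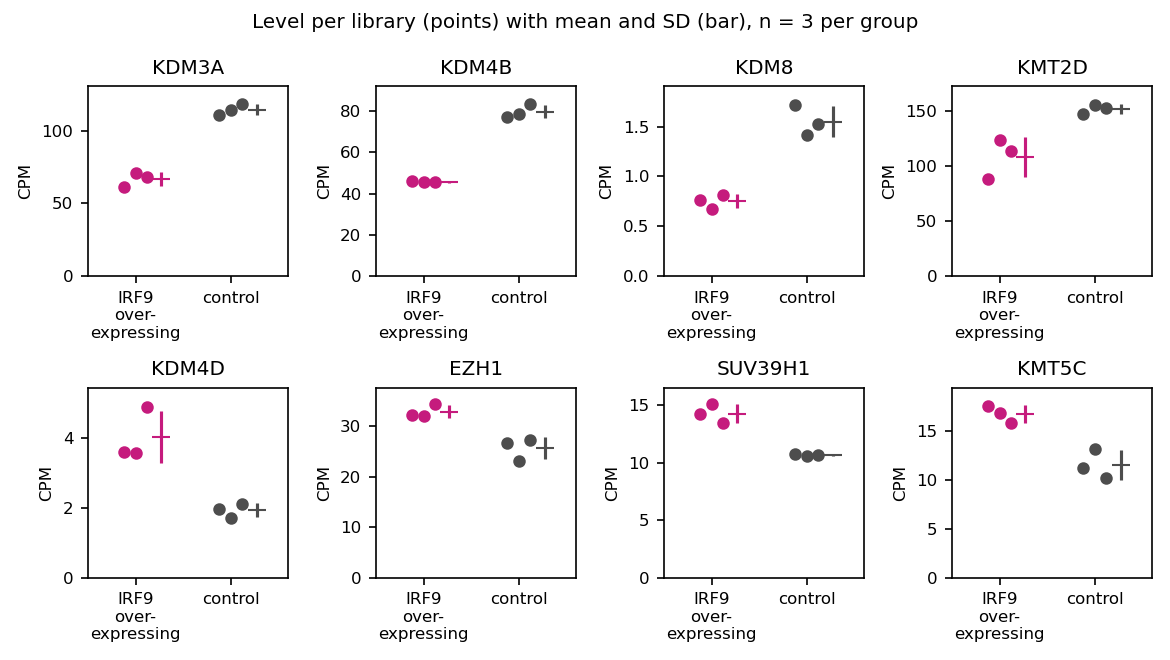
TMM-scaled CPM of KDM3A, KDM4B, KDM8, KMT2D, KDM4D, EZH1, SUV39H1 and KMT5C in each library, with IRF9-overexpressing libraries left of controls in each panel. Points are libraries, and the line and bar give the group mean and SD (n = 3 each). In all 8 panels the groups do not overlap: the first 4 genes are lower and the last 4 higher in overexpressing cells.

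The H3K9 writers were balanced, with 1 of 6 higher, 1 lower and 4 not called (median log2 fold change 0.00). SUV39H1, which trimethylates H3K9 in heterochromatin, had 14.2, 15.1 and 13.5 CPM in overexpressing libraries, against 10.7, 10.6 and 10.7 CPM in controls. The controls were almost level, every overexpressing library lay above them, and the log2 fold change was 0.42 ± 0.08 SE. Its paralogue SUV39H2 was not called at 0.12 ± 0.11 SE, and it overlaps DCLRE1C on the opposite strand, which held a similar number of reads. Per length, SUV39H1 stood at 1.61 ± 0.09 of SUV39H2 in overexpressing libraries and 1.25 ± 0.15 in controls (SD, n = 3 each).

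EHMT2 (G9a) and EHMT1 (GLP), which form the main H3K9 dimethylase, lay slightly below controls. EHMT2 had 49.6, 55.8 and 54.6 CPM in overexpressing libraries, against 57.9, 58.7 and 64.9 CPM in controls. The groups did not overlap (log2 fold change -0.18 ± 0.06 SE), but the call was lost without overexpressing replicate 1 (-0.13) or 3 (-0.20), or without control replicate 2 (-0.20) or 3 (-0.13). EHMT1 was not called at -0.10 ± 0.04 SE. SETDB1, the H3K9 methylase recruited by zinc finger repressors, was not called at -0.14 ± 0.07 SE, nor was its relative SETDB2 at 0.10 ± 0.10 SE.

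Of the 8 H3K4 writers 6 fell, SMYD3 rose and KMT2A was not called (median log2 fold change -0.24). Without overexpressing replicate 1, 4 were called lower and none higher (median -0.17). With library size only, 4 were lower and 1 higher (median -0.18). With a trend on transcript length removed, 6 were lower and none higher (median -0.19). The summed level of the 8 was 443.3 ± 51.9 CPM in overexpressing libraries and 561.3 ± 19.5 CPM in controls (SD, n = 3 each), a ratio of 0.790. Overexpressing replicate 1 was lowest in that sum, at 385 CPM, against 484 and 461 CPM in replicates 2 and 3. KMT2D and KMT2C place H3K4 monomethylation at enhancers. KMT2D (ENSG00000167548, chromosome 12) had 87.6, 123 and 113 CPM in overexpressing libraries, against 147, 156 and 153 CPM in controls. KMT2C had 67.5, 89.7 and 83.8 CPM in overexpressing libraries, against 108, 119 and 118 CPM in controls. For both, replicate 1 was the lowest of the overexpressing libraries and all 3 lay below every control. The log2 fold change was -0.49 ± 0.09 SE for KMT2D and -0.52 ± 0.08 SE for KMT2C, and without overexpressing replicate 1 it was -0.36 for KMT2D and -0.41 for KMT2C, still called lower. With a trend on transcript length removed from each library, KMT2D was at -0.31, also called lower.

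SETD1B, a catalytic subunit for H3K4 trimethylation at promoters, and KMT2E had the lowest log2 fold changes among the writers, and did not differ beyond their errors. SETD1B had 31.9, 34.6 and 33.7 CPM in overexpressing libraries, against 47.8, 51.7 and 45.3 CPM in controls. The libraries of each group lay close together and did not overlap (log2 fold change -0.54 ± 0.06 SE). SETD1A, its paralogue, was lower by less, at -0.17 ± 0.06 SE, and of the fits that left out 1 library it kept the call only without overexpressing replicate 2. Its value was -0.13 without overexpressing replicate 1, -0.17 without overexpressing replicate 3 and -0.16 to -0.18 without a control. With every library kept, SETD1A also lost the call under DESeq2, upper-quartile scaling, library size only, no filter and FPKM.

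KMT2A (MLL1) had 51.4, 74.1 and 68.8 CPM in overexpressing libraries, against 62.8, 69.7 and 72.1 CPM in controls. The groups overlapped (log2 fold change -0.08 ± 0.11 SE), and the estimate was 0.07 without overexpressing replicate 1, again not called. KMT2B, a relative of KMT2A, was lower at -0.22 ± 0.07 SE and lost the call without overexpressing replicate 1 (-0.13) or any 1 control (-0.20 to -0.23). SETD7, which monomethylates H3K4 and several other proteins, was lower at -0.27 ± 0.06 SE. SMYD3 had 18.6, 15.4 and 15.6 CPM in overexpressing libraries, against 14.4, 14.0 and 13.1 CPM in controls. It was highest in overexpressing replicate 1 (log2 fold change 0.26 ± 0.09 SE), and the call was lost without that library (0.16) or without any 1 control (0.23 to 0.29). It was also lost with every library kept, under DESeq2, limma-voom, no filter, the legacy edgeR fit and the length-trend fit (0.18).

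Of the 5 H3K4 erasers, KDM5B and KDM5C fell and KDM5A, KDM1A and KDM1B were not called, with a median of -0.13. Without overexpressing replicate 1 the median was -0.03 and KDM5B alone was called, and it was -0.03 with the length trend removed and -0.07 with library size only. KDM5B, which strips H3K4 trimethylation, had 102, 115 and 111 CPM in overexpressing libraries, against 141, 141 and 139 CPM in controls. The controls were nearly level and all overexpressing libraries lay below them (log2 fold change -0.36 ± 0.05 SE). KDM5C was lower at -0.14 ± 0.05 SE and kept its call only where overexpressing replicate 3 was the library left out, with -0.10 to -0.15 in the other cases. KDM1A (LSD1) had 155, 160 and 155 CPM in overexpressing libraries, against 153, 161 and 154 CPM in controls. The libraries of the 2 groups were interleaved, at a log2 fold change of 0.00 ± 0.04 SE. KDM1B, its flavin-dependent paralogue, stood at 0.05 ± 0.08 SE, and KDM5A, a paralogue of KDM5B, at -0.13 ± 0.07 SE (-0.03 without overexpressing replicate 1).

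KDM1A was also the member with the highest level per length in control cells, at 42.9 ± 1.09 FPKM (SD, n = 3). KDM2A followed at 39.6 ± 0.77 FPKM and EHMT1 at 21.8 ± 1.82 FPKM, so the gap between KDM2A and EHMT1 was far beyond their spread. KDM3B at 16.6 ± 0.93 FPKM and KDM3A at 16.5 ± 2.29 FPKM did not differ beyond theirs. The lowest were KDM8 at 0.646 ± 0.08 FPKM and KDM4D at 0.554 ± 0.06 FPKM, and the median of the 48 was 8.64 FPKM. The enzymes that differed by at least 2-fold between groups, KDM8 and KDM4D, were thus those with the lowest levels.

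Of the 2 polycomb enzymes that write H3K27 methylation, EZH1 rose and EZH2 was not called. EZH2, the main catalytic subunit of PRC2 in dividing cells, had 33.4, 37.9 and 36.9 CPM in overexpressing libraries, against 33.9, 34.4 and 34.9 CPM in controls. The groups overlapped and it was not called (log2 fold change 0.07 ± 0.06 SE). EZH1, its paralogue, had 32.3, 32.0 and 34.3 CPM in overexpressing libraries, against 26.7, 23.1 and 27.3 CPM in controls. All overexpressing libraries were higher, at 0.36 ± 0.07 SE. The EZH1 to EZH2 ratio of FPKM was 0.745 ± 0.06 in overexpressing libraries and 0.590 ± 0.07 in controls (SD, n = 3 each).

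The H3K27 erasers moved apart. KDM6A (UTX), which works with KMT2C and KMT2D at enhancers, had 30.2, 32.7 and 33.0 CPM in overexpressing libraries, against 36.5, 39.2 and 38.1 CPM in controls. It was lower in all 3 overexpressing libraries (log2 fold change -0.25 ± 0.06 SE). KDM6B (JMJD3), which inflammatory signals induce, had 79.8, 91.1 and 86.8 CPM in overexpressing libraries, against 77.0, 78.4 and 74.1 CPM in controls. It was higher by a small margin at 0.17 ± 0.05 SE, and it kept its call only where overexpressing replicate 1 was the library left out (0.12 to 0.18 in the other cases). The KDM6B to KDM6A ratio of FPKM was 2.50 ± 0.09 in overexpressing libraries and 1.86 ± 0.10 in controls (SD, n = 3 each).

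Of the 6 H3K36 writers 4 fell, none rose and 2 were not called (median -0.22). Without overexpressing replicate 1, 2 were called lower and 2 higher (median -0.12), and with the length trend removed 3 were called lower and 2 higher (median -0.12). ASH1L, which dimethylates H3K36, had 68.1, 86.1 and 83.2 CPM in overexpressing libraries, against 106, 116 and 115 CPM in controls. Every overexpressing library was lower, replicate 1 most so (log2 fold change -0.51 ± 0.08 SE). SMYD2, which methylates H3K36 and p53, had 34.3, 34.6 and 37.5 CPM in overexpressing libraries, against 46.2, 49.8 and 49.5 CPM in controls. The groups were well apart (-0.45 ± 0.06 SE).

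SETD2, which places H3K36 trimethylation on transcribed genes, was lower at -0.20 ± 0.07 SE, and NSD1, an H3K36 dimethylase, at -0.23 ± 0.08 SE. Both lost the call without overexpressing replicate 1 (-0.12 for each), control replicate 2 (-0.19 for SETD2 and -0.21 for NSD1) or control replicate 3 (-0.19 for SETD2 and -0.21 for NSD1). Neither call held with library size only, with no filter or on FPKM, and that of NSD1 was also lost under the legacy and robust edgeR fits and with the length trend removed, where its value was -0.10. The other NSD enzymes were not called, NSD2 at 0.10 ± 0.04 SE and NSD3 at 0.11 ± 0.06 SE, and without overexpressing replicate 1 both were called higher (0.13 for NSD2 and 0.17 for NSD3).

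Among the 3 H3K36 erasers KDM2A and KDM8 fell and KDM2B was not called (-0.06 ± 0.06 SE). KDM2A, which binds CpG islands and removes H3K36 dimethylation, had 208, 229 and 230 CPM in overexpressing libraries, against 283, 285 and 285 CPM in controls. The controls differed little from each other and lay above every overexpressing library (log2 fold change -0.36 ± 0.04 SE). KDM8 (JMJD5), whose activity on H3K36 is disputed, had 0.760, 0.676 and 0.814 CPM in overexpressing libraries, against 1.71, 1.41 and 1.52 CPM in controls. The groups did not overlap (log2 fold change -1.04 ± 0.26 SE), but the counts were only 48 to 66 reads in overexpressing libraries and 92 to 129 in controls. On FPKM the log2 ratio of means was -0.47, and KDM8 was not called. A gene on the opposite strand, AC109449.1, overlaps KDM8 with 37.9% of its reads and was not called at 0.18. KDM2B (RNF34), SETDB1 (CERS2) and NSD3 (DDHD2) likewise overlap, on the opposite strand, the gene named in brackets, which held from 65.3% to 363% of the reads of the enzyme.

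Of the 3 H4K20 writers, KMT5C rose and KMT5A and KMT5B were not called. KMT5C (SUV420H2), which adds the second and the third methyl group at H4K20 in heterochromatin, had 17.6, 16.8 and 15.8 CPM in overexpressing libraries, against 11.3, 13.2 and 10.2 CPM in controls. The groups did not overlap (log2 fold change 0.53 ± 0.10 SE). KMT5A, the monomethylase of H4K20, stood at 0.12 ± 0.06 SE and KMT5B, the paralogue of KMT5C, at 0.02 ± 0.04 SE. DOT1L, the H3K79 methylase, was not called at 0.11 ± 0.05 SE, and without overexpressing replicate 1 it was called higher, at 0.13. It overlaps AP3D1 and PLEKHJ1 on the opposite strand, and AP3D1 held 492% of its reads.

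KMT2E and SETD5, relatives of the writers for which catalysis is not established, were given no residue. KMT2E had 54.4, 66.0 and 67.7 CPM in overexpressing libraries, against 84.4, 94.0 and 93.1 CPM in controls. It was lower in all 3 overexpressing libraries (log2 fold change -0.53 ± 0.08 SE). It overlaps SRPK2 on the opposite strand, which held about as many reads and was lower too, at -0.32 ± 0.05 SE (adjusted p = 0.000142, edgeR). SETD5 was not called at -0.15 ± 0.06 SE.

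Summed over all 28 writers, the level was 1397, 1611 and 1578 CPM in overexpressing libraries, against 1672, 1764 and 1764 CPM in controls, a ratio of mean levels of 0.882. Over the 20 erasers it was 1277, 1431 and 1402 CPM in overexpressing libraries, against 1600, 1642 and 1628 CPM in controls, a ratio of 0.844. In both sums every overexpressing library was below every control, and replicate 1 was the lowest. Such sums weight abundant and long genes most.

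Transcript length and one library moved with these differences. Overexpressing replicate 1 was lower in long transcripts than its partners: over the 1085 protein-coding genes, of 12326 at 1 CPM or more in controls, whose longest transcript exceeds 8 kb, its median log2 difference from the control mean was -0.22, while replicates 2 and 3 of that group were at -0.04 and -0.08. Of these genes 37.7% were called lower and 16.1% higher, against 16.3% lower and 27.5% higher among genes under 2 kb. The enzymes are long: 15 of the 48 exceed 8 kb, and of these 10 fell and none rose (median -0.23). Of the 9 between 2 and 4 kb, 1 fell and 3 rose (median 0.12). Over the 4762 such protein-coding genes of 2 to 4 kb, 20.7% fell and 27.3% rose. Among writers over 8 kb 7 of 10 fell, and among the 18 shorter ones 5 fell and 4 rose. The erasers did not show such a split: 3 of 5 over 8 kb fell (median -0.27), and of the 15 shorter ones 8 fell and 2 rose (median -0.17). Of the 10 enzymes between 4 and 6 kb 6 fell and 1 rose (median -0.18). Over the 3148 such protein-coding genes of 4 to 6 kb, 27.9% fell and 22.9% rose. Spearman's rho between length and log2 fold change was -0.40 over the 48 enzymes and -0.14 over 12326 protein-coding genes, given as descriptions across genes that share the same libraries.

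**Figure D4:**
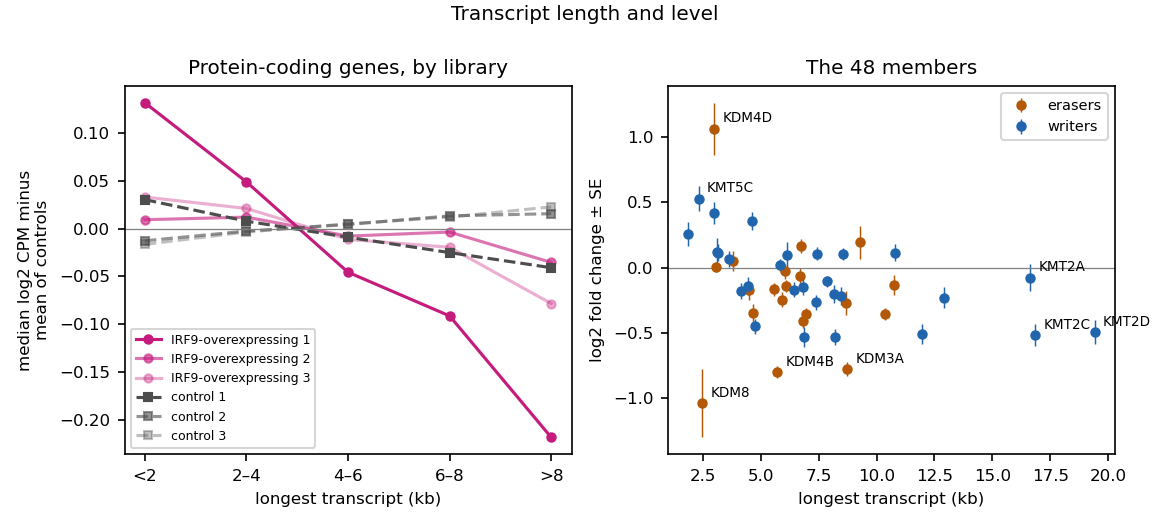
Left, the median log2 CPM minus the control mean of protein-coding genes at 1 CPM or more in controls, in bins of longest transcript length (kb), one line per library; overexpressing replicate 1 drops to -0.22 in the bin over 8 kb. Right, log2 fold change (IRF9-overexpressing minus control) with its standard error for the 48 enzymes against longest transcript length (kb). None of those over 8 kb was called higher, against 16.1% of the genes in that bin on the left.

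Of the 48 enzymes, 37 had their lowest overexpressing value in replicate 1. How many of all genes did so was not counted. Among protein-coding genes of 6 to 8 kb its median log2 difference was -0.09, against -0.003 and -0.02 in replicates 2 and 3. Among those of 2 to 4 kb it was the highest, at 0.05, against 0.01 and 0.02. Without overexpressing replicate 1, 16 enzymes were called lower and 9 higher (median log2 fold change -0.09), against 3373 lower and 3539 higher over all genes. With a length trend removed from each library, an alternative chosen after seeing the data, 22 were called lower and 9 higher (median -0.11). Over all genes that fit called 3894 lower and 3746 higher. Scaled by library size alone, which moved the median of all genes to 0.07, 15 were called lower and 9 higher, with a median of -0.08. Over all genes that scaling called 2615 lower and 4742 higher, against 3473 lower and 3648 higher in the main fit. KDM3A and KDM4B were called lower in each of these fits, and KDM4D, EZH1, SUV39H1 and KMT5C higher. Without control replicate 2, also, 15 were called lower (2803 over all genes).

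At the same threshold, 15 of the 29 called enzymes held their call under each of 19 other fits, which changed the tool, scaling, filter or unit or left out 1 library. Of the 29, KDM8 and KDM4D alone passed a 2-fold minimum, and KDM8 is not among the 15. The 11 lower ones were KDM2A, KDM3A, KDM3B, KDM4B, KDM4C, KMT2C, KMT2D, KMT2E, SETD1B, ASH1L and SMYD2. The 4 higher ones were KDM4D, SUV39H1, EZH1 and KMT5C. KDM5B (-0.25), KDM6A (-0.18), SETD7 (-0.18) and KDM8 (-0.17) lost the call on log2(FPKM + 1), and SMYD2 kept it there at -0.26, against -0.45 on counts. JMJD1C, PHF2, KDM5C, KMT2B and EHMT2 also lost the call with every library kept, under library size only, no filter and FPKM. KDM6B lost it on FPKM, and JMJD1C under the robust edgeR fit too. Over the 19 fits the log2 fold change of KDM4B lay between -0.82 and -0.66, that of KDM3A between -0.82 and -0.38, and that of KDM4D between 0.52 and 1.15.

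The lists also held proteins that work with these enzymes. Of 84 tested genes for subunits, partners, related SET and JmjC proteins and cofactor supply, 19 rose and 17 fell. That is 42.9% called (37.4% over all genes, with 19.2% higher and 18.2% lower), and the median log2 fold change was -0.01. Of the 11402 protein-coding genes within the enzymes' range of control CPM, 2795 rose and 2681 fell. The lists are small, and nothing is read from their counts. In the COMPASS complexes of H3K4 methylation 2 of 12 rose and 3 fell. PSIP1, a chromatin tether for the MLL proteins, had 103 ± 1.23 CPM in overexpressing libraries and 70.5 ± 0.35 CPM in controls (log2 fold change 0.55 ± 0.04 SE, adjusted p = 6.21e-07, edgeR). DPY30, a core subunit, was higher at 0.27 ± 0.06 SE (adjusted p = 0.00272, edgeR), while the core subunits WDR5, RBBP5 and ASH2L were not called.

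Of the 10 tested PRC2 subunits 2 rose and none fell (19.2% higher and 18.2% lower over all genes). The core subunits EED and SUZ12 were not called, at -0.01 and -0.02. PHF1 and PHF19, accessory subunits that read H3K36 methylation, were higher at 0.33 ± 0.07 SE (adjusted p = 0.00202, edgeR) and 0.26 ± 0.07 SE (adjusted p = 0.011, edgeR). On FPKM, PHF19 was not called and lay at -0.01. Of 13 partners and readers of H3K9 methylation 3 rose and 3 fell. CDYL, a reader of that mark, was higher at 0.21 ± 0.05 SE (adjusted p = 0.00444, edgeR), and ZNF644, a partner of G9a and GLP, was lower at -0.27 ± 0.06 SE (adjusted p = 0.00239, edgeR).

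Beside KDM1A, which was not called, 4 of 11 partners of KDM1A and KDM1B rose and 3 fell (19.2% higher and 18.2% lower over all genes). HMG20B, a CoREST complex subunit, had 107 ± 5.22 CPM in overexpressing libraries and 73.5 ± 0.93 CPM in controls (log2 fold change 0.54 ± 0.05 SE, adjusted p = 2.65e-06, edgeR). GLYR1, a nucleosome-binding partner of KDM1B, had 60.2 ± 2.22 CPM in overexpressing libraries and 82.0 ± 1.53 CPM in controls (-0.45 ± 0.05 SE, adjusted p = 1.14e-05, edgeR). The CoREST subunits RCOR1 (-0.31 ± 0.05 SE, adjusted p = 0.00039, edgeR) and HDAC1 (-0.34 ± 0.04 SE, adjusted p = 2.04e-05, edgeR) were lower. Of 8 PRC1 subunits linked to KDM2B, RNF2, a ubiquitin ligase for H2A, rose (0.25 ± 0.06 SE, adjusted p = 0.00501, edgeR) and none fell.

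Of 10 partners tied to H3K36 and H3K79 methylation 2 rose and 3 fell (19.2% higher and 18.2% lower over all genes). AFF1, an elongation complex scaffold, had 40.6 ± 5.10 CPM in overexpressing libraries and 60.7 ± 1.75 CPM in controls (-0.58 ± 0.08 SE, adjusted p = 9.33e-05, edgeR). Of 13 other tested SET and JmjC proteins 3 rose and 4 fell, among them SMYD5 at 0.43 ± 0.05 SE (adjusted p = 5.76e-05, edgeR) and JMJD6 at -0.34 ± 0.06 SE (adjusted p = 0.000899, edgeR). Of 9 genes for S-adenosylmethionine and 2-oxoglutarate supply 3 rose and 1 fell. AHCY, which clears the product inhibitor S-adenosylhomocysteine, was higher at 0.25 ± 0.04 SE (adjusted p = 0.00029, edgeR) and its relative AHCYL1 at 0.35 ± 0.04 SE (adjusted p = 3.42e-05, edgeR), while MAT2A, which makes S-adenosylmethionine, was not called at 0.01 ± 0.03 SE.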

How the data were processed

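RNA of 6 HSC-3 libraries (3 per group) was measured. Raw counts for each gene, as whole numbers, were deposited, with a second table of normalised values, treated as FPKM from its values because its header names no unit. Per the submitters' processing notes the tools were HISAT2, StringTie, Trimmomatic, FastQC, edgeR and CASAVA 1.8, on GRCh38, with no role given for any. Whether counting used strand is not given in the sources. Reads of genes that overlap on opposite strands therefore may not have been told apart.

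The counts were tested with edgeR 4.0.16 (R 4.3.3): filterByExpr (minimum 10, total 15), TMM, quasi-likelihood fit by group, Benjamini-Hochberg adjustment over the 19034 genes, called at an adjusted p under 0.05. SE was derived from the test statistic. Transcript lengths came from GENCODE 29 (longest transcript) and promoters from RefSeq. The alternatives used DESeq2 1.42.0 and limma 3.58.1. The legacy and robust edgeR fits and the length-trend fit were chosen after seeing the data.

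The genes and lists were chosen with earlier results of these data known. Genes given in full were KDM3A, KDM4B, the 7 highest and 7 lowest, the extremes of each class and well-known members, and up to 2 called genes with the smallest p per partner list. List genes with a p were thus picked by it or with results known. Others were added after their values were seen. Each gene was listed under its first residue.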

Additional observations from a re-analysis of the deposited data

How the results depend on the processing

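Against 23 enzymes called lower, 15 were so called with library size only, with no filter on low counts and at an adjusted p under 0.01, 11 with limma on log2(FPKM + 1) or log2(FPKM + 0.1), and 1 with a 2-fold minimum. Over all genes 3473 were called lower in the main fit, 2615 with library size only and 2787 with no filter. On FPKM 2090 (+ 1) and 2074 (+ 0.1) of all genes were called lower. The 2-fold minimum also left 1 higher, 1090 genes over the whole table and 0 partner genes, and an adjusted p under 0.01 left 22 of 36 partner genes. On FPKM with either pseudocount the median log2 fold change of the writers was -0.036 (+ 1) and -0.041 (+ 0.1), and the log2 fold change of PHF19 turned to -0.00918 (+ 1) and -0.00969 (+ 0.1). Counting second residues, 4 of 6 H3K36 erasers were called in place of 2 of 3. With 1 library left out, 15 to 21 enzymes were called lower, 4 to 9 higher, and 5784 to 6912 genes and 25 to 35 partner genes were called. Of 912 values of single enzymes under the 19 alternatives, none of the called ones changed sign, 94 lost the call and 18 gained it. The cause of these changes was not tested.

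With the replicate number as a block, 7458 genes were called, 25 enzymes lower and 6 higher. Deviations of libraries sharing a number correlated at 0.163, 0.083 and 0.004, so the numbers were not taken to pair libraries, and overexpressing replicate 2 correlated best with control replicate 3.

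KDM8, with 48 to 129 reads per library, and KDM4D, with 125 to 396, had the fewest reads of the 48 enzymes, so counting error weighs most on them.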
